A study of Homo sapiens with 192 samples.

Results

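Single-nucleus ATAC-seq (snATAC-seq) reads the DNA fragments that the transposase Tn5 releases from open chromatin, 1 read pair for each fragment after duplicates are removed. Most open sites in a single nucleus are seen as 0 or 1 read pair. The features described here are the exceptions, chosen by their raw counts as those with 3 or more read pairs in at least 3 nuclei of 2 plates with 96 nuclei each. This rule kept 447 of 80971 features, or 0.552% of them. Overlapping features share read pairs, and joining them left 444 separate places.

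The nuclei came from HAP1, a near-haploid human cell line derived from the chronic myeloid leukemia line KBM-7 that grows attached to the dish. Nuclei labeled with CASB (concanavalin A-based sample barcoding) and unlabeled nuclei were mixed before tagmentation and sorted singly into 2 plates of 96 wells, with no treatment named in the labels. The label of each nucleus is not known here, so the plates are compared only side by side, and each plate is 1 mixed sample from the same pool. All nuclei carried the same cell line, so no group with a second genotype was compared. Start sites of the adherent markers VIM, ANXA2, CAV1, TPM1 and ZEB1 had read pairs in between 13 and 31 nuclei, and LGALS1 had no feature at its start. Of the blood markers PTPRC, SPI1, CD34, GATA1, CD33 and ITGB2, only ITGB2 had a feature at its start, with read pairs in 2 nuclei.

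Read pairs in features ranged from 20 to 15351 per nucleus with a median of 1647.5, and plates 1 and 2 held 241927 and 241240 read pairs. Each sample title gives a plate and a number from 1 to 96, which the labels do not call a well position. Nuclei of a plate numbered 37 to 48, 73 to 84 and 85 to 96 that hold the same place in their run of 12 are called linked here, because they shared more features than other nuclei did. Over pairs of nuclei with at least 300 features, linked nuclei shared a median of 29% of the features of the shallower nucleus (70 pairs). For other nuclei of a plate the median was 6.49% (6414 pairs). Linked pairs varied widely: 40 of the 70 shared more than nearly all other pairs, while some shared less than 6.49%. The 72 linked nuclei held 55.1% of all read pairs and 53% of the counts of 3 or more in the 447 features. When each set of linked nuclei was counted as 1, 422 of the 447 features still met the rule.

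A haploid nucleus offers 1 copy of each locus before replication and a pair of copies after it. Several read pairs at 1 place can come from several cuts within the same open stretch, and promoters are the widest open stretches of most genomes. Satellite arrays and ribosomal DNA are known for high counts at a single position of a reference, because a cell can hold more copies of them than the reference shows. Nuclear copies of mitochondrial DNA resemble the mitochondrial genome, of which a cell holds many copies. Where the read pairs of a given feature came from was not tested. The sequences below show the features with the most nuclei at 3 or more read pairs, together with a ribosomal DNA feature and a promoter for comparison. They are the plus strand of hg38 around the feature center, except for PEG10, where the stretch with the most repeats within the feature was taken.

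In the mitochondrial copy, capitals mark bases that differ from the mitochondrial genome. In the next 4 sequences, capitals mark bases that equal the base 1 repeat length further on, which is 42 bp on chromosome 3, 139 bp and 16 bp on chromosome 21, and 45 bp in PEG10. In the last sequence, capitals mark 4 motifs on either strand, namely TGANTCA of the AP-1 factors, CCGGAAGT of the ETS factors, CCAAT of the factor NF-Y and GGGCGG of the SP and KLF factors.
Mitochondrial copy at MTATP6P1, chr1:633878-634177: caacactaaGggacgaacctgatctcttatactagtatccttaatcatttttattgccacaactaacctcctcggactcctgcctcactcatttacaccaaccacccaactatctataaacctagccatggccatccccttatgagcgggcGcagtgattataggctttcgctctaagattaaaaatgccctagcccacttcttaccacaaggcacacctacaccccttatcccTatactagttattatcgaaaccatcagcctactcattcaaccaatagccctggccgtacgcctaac
Chromosome 3, between genes, chr3:93470450-93470749: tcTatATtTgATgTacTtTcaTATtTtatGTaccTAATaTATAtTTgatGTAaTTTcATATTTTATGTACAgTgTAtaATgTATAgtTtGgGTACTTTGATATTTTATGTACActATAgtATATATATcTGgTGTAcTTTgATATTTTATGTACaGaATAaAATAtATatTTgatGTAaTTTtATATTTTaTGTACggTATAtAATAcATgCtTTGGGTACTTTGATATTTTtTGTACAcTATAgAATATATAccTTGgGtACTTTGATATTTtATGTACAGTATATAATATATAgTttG
Chromosome 21, between genes, chr21:6371891-6372190: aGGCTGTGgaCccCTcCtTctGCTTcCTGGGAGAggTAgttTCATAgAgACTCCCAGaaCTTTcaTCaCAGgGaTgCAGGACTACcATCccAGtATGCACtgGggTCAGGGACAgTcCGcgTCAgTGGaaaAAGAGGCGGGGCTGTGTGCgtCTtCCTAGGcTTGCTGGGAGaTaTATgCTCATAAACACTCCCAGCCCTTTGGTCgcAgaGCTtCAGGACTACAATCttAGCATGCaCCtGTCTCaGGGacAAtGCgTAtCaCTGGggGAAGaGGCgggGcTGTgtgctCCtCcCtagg
PEG10 intron, chr7:94658049-94658348: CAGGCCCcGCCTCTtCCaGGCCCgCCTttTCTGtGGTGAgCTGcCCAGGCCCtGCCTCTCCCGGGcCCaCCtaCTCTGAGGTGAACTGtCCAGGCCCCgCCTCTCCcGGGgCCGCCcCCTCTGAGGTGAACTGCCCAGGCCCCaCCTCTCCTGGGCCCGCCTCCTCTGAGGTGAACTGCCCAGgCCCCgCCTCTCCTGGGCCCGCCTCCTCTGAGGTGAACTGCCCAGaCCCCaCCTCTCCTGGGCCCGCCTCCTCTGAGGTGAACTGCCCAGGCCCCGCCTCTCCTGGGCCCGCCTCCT
Chromosome 21, ribosomal DNA, chr21:8219909-8220208: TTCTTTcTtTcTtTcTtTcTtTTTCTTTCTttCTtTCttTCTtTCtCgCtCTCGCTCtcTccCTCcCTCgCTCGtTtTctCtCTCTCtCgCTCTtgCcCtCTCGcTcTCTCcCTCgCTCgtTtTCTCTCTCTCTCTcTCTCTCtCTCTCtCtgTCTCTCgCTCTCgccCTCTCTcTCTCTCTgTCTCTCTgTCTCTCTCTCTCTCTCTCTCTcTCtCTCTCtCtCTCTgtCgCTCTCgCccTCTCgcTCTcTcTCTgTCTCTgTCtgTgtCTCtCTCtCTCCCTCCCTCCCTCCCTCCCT
ODR4 and TPR promoter, chr1:186375217-186375516: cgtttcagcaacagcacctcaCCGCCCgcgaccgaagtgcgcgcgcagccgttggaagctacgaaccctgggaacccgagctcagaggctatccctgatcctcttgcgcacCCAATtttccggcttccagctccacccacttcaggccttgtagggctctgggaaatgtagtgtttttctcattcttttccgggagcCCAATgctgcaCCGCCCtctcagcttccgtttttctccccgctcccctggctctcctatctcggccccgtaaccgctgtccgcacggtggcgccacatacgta

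A set of 4 features stood apart from the rest by the number of nuclei that chose them. The feature at chr1:633528-634528 had 3 or more read pairs in 75 nuclei, the one at chr3:93470100-93471100 in 70, the one at chr21:6371541-6372541 in 40 and the PEG10 intron feature at chr7:94657454-94658454 in 20. The next, at the shared promoter of ODR4 and TPR, had 15. In the plot of nuclei detected against nuclei at 3 or more, the 4 features lie beyond all others on both axes. Of the 447 features, 251 had exactly 3 such nuclei, 96 had 4, 91 had between 5 and 9, and 9 had 10 or more.

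**Figure D1:**
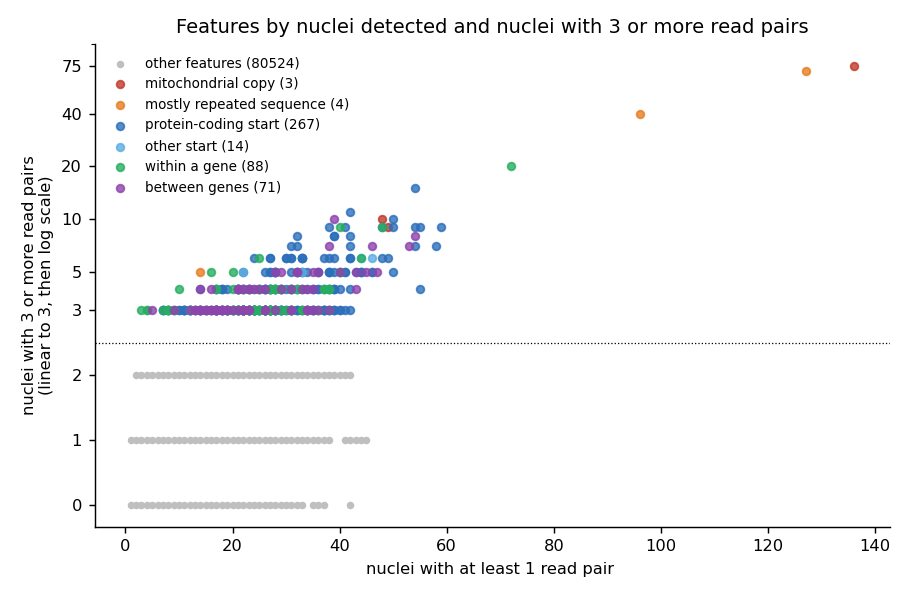
Each point is a feature, placed by the number of nuclei with at least 1 read pair (x axis) and the number with 3 or more (y axis, linear to 3 and logarithmic above). Grey points below the dotted line are the 80524 other features, several to a point, and colored points are the 447 members by class; the 4 rightmost lie at 75, 70, 40 and 20 nuclei with 3 or more.

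The feature with the most nuclei lies on chromosome 1 over MTATP8P1, MTATP6P1 and MTCO3P12, pseudogenes that are nuclear copies of the mitochondrial genes for ATP synthase subunits and cytochrome c oxidase subunit III. It aligned over all 1001 bp to bases 8359 to 9359 of the mitochondrial genome at 98.3% identity, with 17 differing bases. Over the 96 nuclei of plate 1 its count was 0 at the lowest, 2 at the median and 28 at the highest, and in plate 2 it was 0, 2 and 17. It was seen in 68 nuclei of each plate, 70.8% (exact Clopper-Pearson 95% interval 60.7% to 79.7%). Counts of 3 or more were in 37.5% of nuclei of plate 1 (27.8% to 47.97%) and 40.6% of plate 2 (30.7% to 51.1%). The 75 nuclei at 3 or more fell in 59 separate sets when linked nuclei were counted as 1. Intervals here cover counting error only and take nuclei as independent, although linked nuclei can share features. Counts of 3 or more also chose the features, so these shares only describe the plates.

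A pair of overlapping features nearer the chromosome end covers MTND2P28, a nuclear copy of the gene for subunit 2 of NADH dehydrogenase. The features at chr1:629458-630458 and chr1:629850-630850 aligned to the mitochondrial genome at 98.7% and 98.2% identity over 1001 bp. They were seen in 48 and 49 nuclei with 86 and 87 read pairs, and 10 and 9 nuclei reached 3. Their highest count was 6 in each plate, and their medians were 0. Between these features and MTATP6P1, a feature over MTCO1P12 at chr1:630707-631707 was just as close to the mitochondrial genome (98.6% over 1001 bp) but had 3 read pairs in 3 nuclei. Within this copy, the feature with the fewest read pairs was thus as close to the mitochondrial genome as the others.

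Of all 80971 features, 9 aligned to the mitochondrial genome at 80% identity or more over at least 200 bp, at 7 separate places. Of the 9, 3 met the rule, at 2 places. The other 6 had between 3 and 9 read pairs in all nuclei together, and 4 of these had 95% identity or more over at least 500 bp. A further feature that met the rule, at chr17:22520899-22521899 between genes, fell just short of this limit with 79.7% identity over 464 bp. It had 78 read pairs in 53 nuclei, and 7 nuclei reached 3. The authors removed reads placed on the mitochondrial genome, so the counts are of read pairs that were placed on the nuclear copies. Whether they came from mitochondria was not tested.

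The feature on chromosome 3 lies between genes, 373164 bp from the nearest annotated start, and holds a run of 100 undetermined bases (N). Its bases equalled those 42 bp further on at 49.3% of positions, whereas over all features the best such match at any shift from 10 to 400 bp had a median of 31.6%. The stretch printed above is a run of these AT-rich units, and the GC content of the feature was 30.3%, the lowest of the 447. Of its words of 31 bases, 50.5% occurred again in the assembly. Alignments of 200 bp or more at 90% identity or more numbered 1225 elsewhere. Of these, 1217 were on chromosome 3 between positions 91544150 and 93714351, around the centromere. No alignment reached 500 bp at 90% identity.

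The highest count of any nucleus among the 447 features was 40 read pairs at this one, in 1 nucleus of plate 1, and over the features that did not meet the rule it was 11. Over the nuclei of plate 1 the lowest, median and highest counts were 0, 1 and 40, and over plate 2 they were 0, 1 and 22. Counts of 10 or more were found in 8 nuclei of plate 1 and 5 of plate 2. Counts of 3 or more were in 40.6% of nuclei of plate 1 (30.7% to 51.1%) and 32.3% of plate 2 (23.1% to 42.6%). The 70 nuclei fell in 59 separate sets when linked nuclei were counted as 1.

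The feature at chr21:6371541-6372541 lies between genes on the short arm of chromosome 21, 4.72 kb from an assembly gap of at least 10 kb. Its units were 139 bp long, with 56.03% of bases equal to the base 1 unit further, the highest of the 447 features. Of its words of 31 bases, 96.8% occurred again in the assembly, at a median of 2 copies. The second copy was on a contig of chromosome 17 whose position is not known (99.9% identity over 1001 bp), and 20 alignments of 500 bp or more reached 80%. Counts over the nuclei were 0, 0 and 11 at the lowest, median and highest in plate 1, and 0, 1 and 9 in plate 2. Counts of 3 or more were in 16.7% of nuclei of plate 1 (9.84% to 25.6%) and in 24 of 96 nuclei of plate 2 (16.7% to 34.9%).

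The fourth feature lies in an intron of PEG10, an imprinted gene derived from a retrotransposon that is expressed from the paternal copy. Its center is 1382 bp from the nearest start, and the feature does not hold a start. It is GC-rich (64.1%) and is built of units of 45 bp, with 53.6% of bases equal to the base 1 unit further. Only 15.3% of its words of 31 bases occurred again in the assembly, and it had no alignment elsewhere of 200 bp or more at 90% identity. The repeat is thus within the feature itself. Counts were 0, 0 and 7 in plate 1 and 0, 0 and 13 in plate 2. Counts of 3 or more were in 8.33% of nuclei of plate 1 (3.67% to 15.8%) and 12.5% of plate 2 (6.63% to 20.8%).

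**Figure D2:**
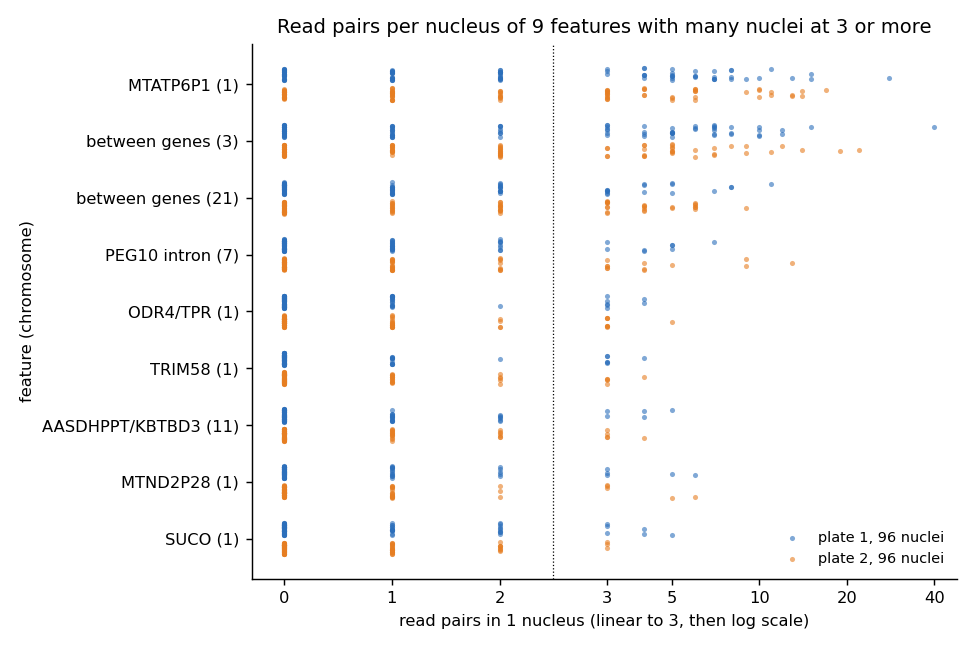
Each point is 1 nucleus, with its read pairs on the x axis (linear to 3, then logarithmic) for 9 of the 10 features with the most nuclei at 3 or more, and the 2 plates in separate colors. The 3 features at the top reach 28, 40 and 11 read pairs, and PEG10 reaches 13, while the 5 below them do not exceed 6.

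Another feature of repeated units lies in an intron of the long noncoding RNA ENSG00000278996 at chr21:8219559-8220559, within the ribosomal DNA of chromosome 21 and 6835 bp from RNA5-8SN2, a gene for 5.8S ribosomal RNA. Ribosomal DNA repeats in tandem on the short arms of several chromosomes. Here 92.9% of words of 31 bases occurred again, at a median of 8 copies, and 10 alignments elsewhere of 500 bp or more reached 90% identity, on 3 sequences of the assembly. It was seen in 14 nuclei with 32 read pairs, and 5 nuclei reached 3, which is 35.7% of those that saw it. Its highest count was 4 in each plate.

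By number of features, mostly repeated sequence was less common among the 447 than among all features. At least 50% of the words of 31 bases were repeated in 7 of the 447 (1.57%). They were the 3 features of mitochondrial sequence, at 2 places, and the chromosome 3 feature. The others were both chromosome 21 features and an intron feature of NNT-AS1 at chr5:43580310-43581310. Over all features the share was 3.50%, and features of such sequence that did not meet the rule had a median of 3 read pairs. The NNT-AS1 feature had 57.8% repeated words, 336 alignments of 500 bp or more at 90% identity, and 50 read pairs in 32 nuclei. Words seen once only made up the whole feature in 66% of the 447 and in 46.6% of all features. The authors dropped reads of low mapping quality, which removes most reads from sequence with identical copies, so such features are measured less completely.

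The limit for repeats within a feature was set after the values were seen. At 45% equal bases or more, 5 of the 447 features (1.12%) passed, compared with 478 of all features (0.590%). Beside the 4 described above, this was the promoter of ADPRHL1, with its best match at a shift of 34 bp. It had 35 read pairs in 21 nuclei and 4 nuclei at 3. Assembly gaps of at least 10 kb lay within 1 Mb of 31 of the 447 features (6.94%) and of 4.65% of all features.

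Most of the 447 features were promoters of protein-coding genes. A transcription start lay within 283 of the 447 features (63.3%), compared with 17.2% of all features. These include the features at the starts of MTATP6P1 and MTND2P28 described above. A protein-coding start lay in 267 (59.7% compared with 14.5%). Starts of at least 2 protein-coding genes lay in 45, which is 16.9% of those with a protein-coding start. Over all features that share was 11.7%. The median GC content was 58.6% for the 447 and 41.4% for all features, and the median observed-over-expected CpG ratio was 0.713 and 0.215. With each set of regions taken as it stands, these are descriptions, since regions are not replicates.

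The promoter with the most nuclei at 3 or more is shared by ODR4 and TPR, the latter a protein of the nuclear pore basket (chr1:186374867-186375867). It was seen in 54 nuclei, 15 of which reached 3. Its counts over the nuclei ran from 0 to 4 in plate 1 and from 0 to 5 in plate 2, with medians of 0. The printed 300 bases hold CCAAT words as well as GGGCGG words on both sides of the center, and none of its words of 31 bases occurred again in the assembly. Next came TRIM58, a ubiquitin ligase known from red cell development, with 72 read pairs in 42 nuclei and 11 at 3. The shared promoter of AASDHPPT, which attaches the phosphopantetheine group to carrier proteins, and KBTBD3 had 87 read pairs in 50 nuclei and 10 at 3.

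SUCO, a membrane protein of the endoplasmic reticulum, and DUSP10, a phosphatase of the MAP kinases p38 and JNK, completed the 5 with the most nuclei. They had 98 and 93 read pairs in 59 and 55 nuclei, and 9 nuclei each at 3. The highest count of any nucleus at these 5 promoters was 5. In contrast to the 4 features with repeats or mitochondrial sequence, no nucleus carried 10 read pairs at any of them. This did not hold for all promoters, as those of METTL13, POLG and STARD3NL had highest counts of 12, 11 and 10. Of the 5 promoters, that of TRIM58 held 14.6% repeated words, and the other 4 held 0.412% or less.

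Further promoters with many nuclei, named after their values were seen, were those of ENY2 (a subunit shared by the SAGA and TREX-2 complexes) with NUDCD1, PDCD10 (a cerebral cavernous malformation gene) with SERPINI1, the transcription factor gene LCORL and OXR1 (oxidation resistance), each with 9 nuclei at 3. They had 91, 87, 79 and 72 read pairs. EDEM3 of endoplasmic reticulum degradation and VPS50 of endosome recycling had 8 nuclei each, and METTL13, a methyltransferase of the elongation factor eEF1A, and ASNS, asparagine synthetase, had 7 each.

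Several gene families were looked up at the starts. All protein-coding starts are the background, with 2.28% of them in the 447. Ribosomal protein genes had 1 of 69 features (RPL39L), zinc finger genes had 9 of 325 (2.77%, among them ZNF672, ZNF33A and ZNF33B), and RNA genes of many copies had 1 of 115. That 1 was RNU4ATAC, a minor spliceosome RNA, in a feature that also holds a start of CLASP1. Replication-dependent histone genes had 0 of 35, which allows a share of up to 8.57%, and starts of imprinted genes had 0 of 19, which allows up to 15.8%. The features in imprinted genes that met the rule lay in introns, in PEG10 and in its neighbor SGCE (chr7:94642545-94643545), which had 47 read pairs in 29 nuclei and 4 nuclei at 3.

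The 164 features without a start were of another composition. Of these, 14 overlapped an exon, 77 lay in introns and 73 outside genes. Their median GC content was 40.1% and their median CpG ratio 0.179, close to the 39.9% and 0.1903 of other features without a start. The word TGANTCA of the AP-1 factors occurred in 31.1% of them and in 30.2% of other features without a start. An intron feature of the long noncoding RNA LINC00907 at chr18:42583046-42584046 was seen in only 10 nuclei, but 4 of them (40.0%) reached 3, with 20 read pairs in all and the word TGANTCA.

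Motifs in features with a start were GGGCGG in 95.8%, CCAAT in 72.8%, TGANTCA in 10.6% and CCGGAAGT in 8.83% of the 283. In the 13620 other features with a start they were 78.02%, 65.3%, 15.8% and 7.31%. The core motif of CTCF was in 1.41% and 1.78%. Over all 80971 features the shares were 25.5% for GGGCGG, 75.9% for CCAAT, 27.7% for TGANTCA, 1.67% for CCGGAAGT and 2.06% for CTCF. CCAAT is the shortest of these words, and each word was sought in 1001 bp on both strands. It was in 80.5% of the 164 members without a start and in 78.1% of other features without a start. The SP and ETS words are rich in G and C. The features with a start were GC-rich, with medians of 62.5% for the 283 and 60.04% for the others. Whether word length or GC content sets these shares was not tested.

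A feature seen in many nuclei has more chances to meet the rule, so the 447 were set beside features seen in as many nuclei. Between 20 and 29 nuclei, 180 of 1243 features met the rule, and 61.1% of these and 58.8% of the others held a start. Between 30 and 39 nuclei, 112 of 226 met it, with starts in 68.8% and 69.3%. From 40 nuclei upward, 54 of 67 met it, with starts in 70.4% and 69.2%. Below 20 nuclei the shares were apart, at 59.5% and 43.6% between 10 and 19 nuclei. The same held for GC content, whose medians were 59.9% and 56.8% between 30 and 39 nuclei and 58.5% and 47.8% between 10 and 19. The difference in the share of starts was therefore small or absent among features seen in 20 nuclei or more.

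The motifs behaved alike. Among features with a start seen in at least 20 nuclei, GGGCGG was in 96.0% of the 225 that met the rule and in 91.9% of the other 713. CCAAT was in 75.1% and 73.9%, and CCGGAAGT in 9.33% and 9.54%. Mostly repeated sequence made up 5 of the 54 members and 0 of the other 13 features from 40 nuclei upward, and 1 of 112 members and 0 of 114 others between 30 and 39. In the ranges below, it was the less common among members, with 0 of 180 and 10 of 1063 between 20 and 29 nuclei, 1.19% and 2.08% between 10 and 19, and 0 of 17 and 3.32% between 3 and 9.

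**Figure D3:**
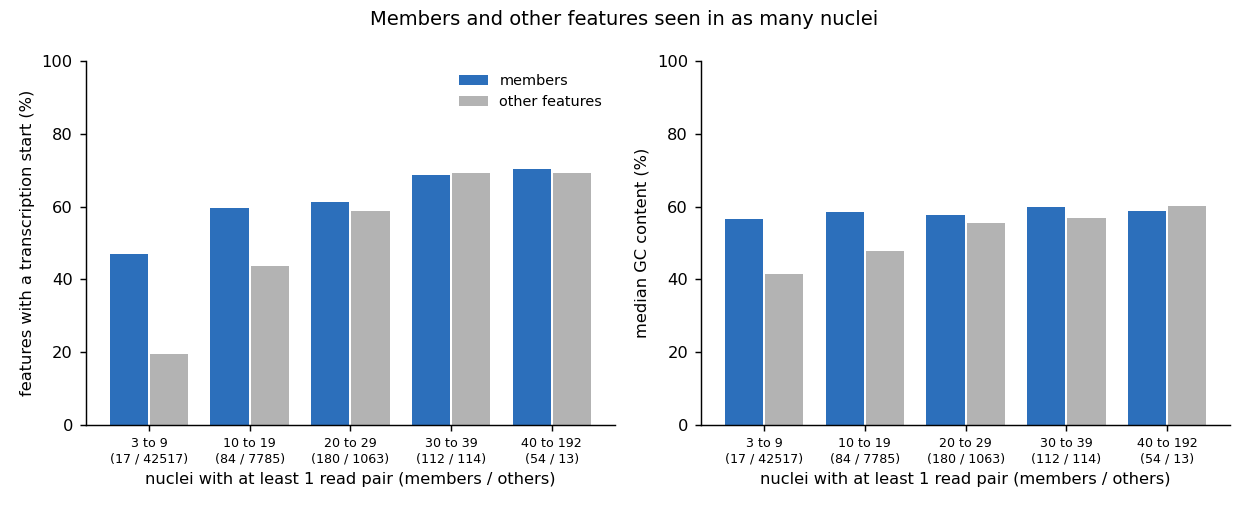
Bars give the share of features with a transcription start (left) and the median GC content (right), in percent, for the 447 members and the other features in 5 ranges of nuclei with at least 1 read pair, with the numbers of features under each pair of bars. In the 3 ranges from 20 nuclei upward the bars of a pair are nearly level, and below 20 nuclei the members stand higher.

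Depth of the nuclei went together with the rule. The 447 features held 1946 counts of 3 or more. Over these counts, each taken with the depth of its nucleus, the median depth was 6135 read pairs. The 145 nuclei with at least 1 such count had a median depth of 2270. The 20 deepest nuclei, each with at least 6274 read pairs, gave 48.9% of these counts and 34.2% of all read pairs. The deepest nucleus, number 44 of plate 2 with 15351 read pairs, had 3 or more in 112 of the 447 features. In 47 nuclei none of the features reached 3, and the deepest of those had 1877 read pairs. Without the 10 deepest nuclei 236 features met the rule.

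**Figure D4:**
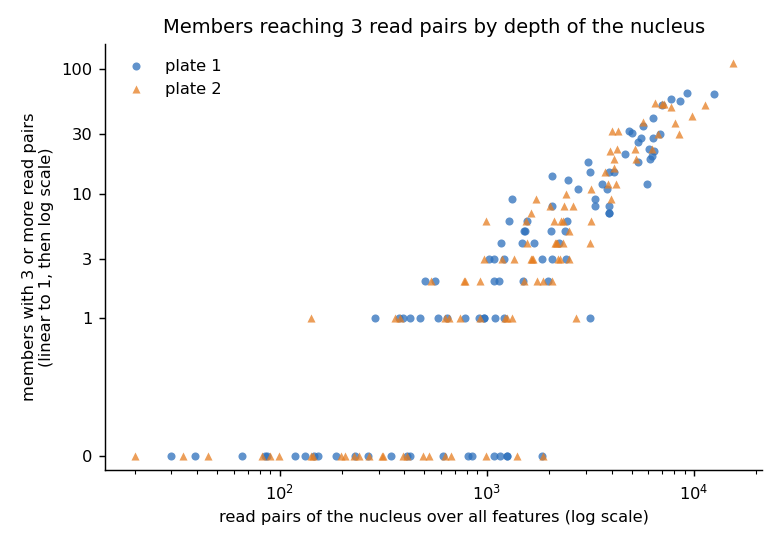
Each point is a nucleus, with its read pairs over all features on a log x axis and the number of the 447 features at 3 or more read pairs on the y axis (linear to 1, then logarithmic), with plates 1 and 2 in separate colors. The number rises with depth up to 112 features in the nucleus with 15351 read pairs, and the 47 nuclei at 0 have at most 1877.

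With every nucleus thinned at random to 2000 read pairs, which left out 106 shallower nuclei and kept 86, 13 features met the rule. Thinning can only lower counts, so all 13 had to be among the 447. They were the 3 features of mitochondrial sequence, at 2 separate places, and the features of chromosomes 3 and 21 between genes. The others were the PEG10 intron, 6 promoters and a site between genes on chromosome X. The MTATP6P1 feature kept 33 nuclei at 3, the chromosome 3 feature 32, the chromosome 21 feature 11 and PEG10 6. The promoters, those of METTL13, ODR4 with TPR, PANX1, ZBTB11, OXR1 and ATG4A with PSMD10, had 3 each. The pair of features over MTND2P28 and the site on chromosome X also had 3 each, so these 9 are at the edge of the rule at this depth.

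In some features a single nucleus held much of the signal. A set of 13 features, chosen after their values were seen, had 8 or more read pairs in at least 1 nucleus, and 9 of these were neither repeated, mitochondrial nor in PEG10. At the METTL13 promoter, 12 of 75 read pairs came from 1 nucleus of plate 2, and the next highest nucleus had 4. At DIABLO, the gene of a mitochondrial regulator of apoptosis, 9 of 21 read pairs came from 1 nucleus. A site between genes at chr7:25862159-25863159 had 12 of its 37 read pairs in nucleus 44 of plate 2, followed by 4. At POLG, the mitochondrial DNA polymerase, the highest nuclei had 11 and 7. FZD1, a Wnt receptor, and ADGRV1 also had their highest count in nucleus 44 of plate 2, with 8 and 9. These features met the rule with 3 to 7 nuclei, unlike the 4 leading features, where the highest nucleus gave between 4.14% and 7.78% of the read pairs.

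Counting linked nuclei as 1 removed 25 features. Those with the most read pairs were the shared promoter of LEPR and LEPROT, of the leptin receptor locus (52 read pairs in 39 nuclei), an intron feature of AGBL1 (45 in 31) and the promoter of CYP51A1, an enzyme of cholesterol synthesis (42 in 30). Each had 3 nuclei at 3 or more that fell in 2 sets. When all nuclei of a plate with the same number modulo 12 were counted as 1, 395 features remained. The 4 leading features then had 24, 24, 20 and 13 such sets.

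The plates were next used apart, since nuclei of 1 plate can describe features chosen by the other. In plate 1 alone 129 features (0.159%) met the rule, and in plate 2 alone 134 (0.165%). Of these, 34 met it in both, and 218 of the 447 met it in neither plate alone. Splitting 3 or 4 nuclei over 2 plates can leave fewer than 3 in each, and 251 and 96 of the 447 had 3 and 4. The numbers 34 and 218 therefore do not measure how well the plates agree. The features chosen by plate 1 had a mean of 27.9 read pairs in plate 2, compared with 2.98 over all features. At least 1 nucleus of plate 2 reached 3 in 93 of the 129 (72.1%), against a background of 8.19%. In the reverse direction the mean was 27.4 compared with 2.99, and 85 of 134 (63.4%) had a nucleus at 3, against 7.24%.

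The chosen features were also set beside others seen in as many nuclei of the choosing plate. Among features seen in 20 or more nuclei of plate 1, 90.2% of the 41 chosen features and 86.05% of the 43 others had a nucleus at 3 in plate 2. Among those seen in 15 to 19 nuclei, the shares were 86.05% of 43 and 57.2% of 285. With plate 2 choosing, they were 92.9% of 42 and 67.7% of 65 at 20 nuclei or more, and 61.1% of 36 and 50.2% of 277 at 15 to 19. Among those seen in 10 to 14 nuclei, the shares were 48.4% of 31 and 36.2% of 1468 with plate 1 choosing, and 55.3% of 38 and 31.4% of 1606 with plate 2. The chosen features were higher in all 6 comparisons, and how much of this a different spread of nuclei within each range makes was not tested.

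The features were spread unevenly over the chromosomes. Chromosome 7 had 56 among its 5317 features, or 10.5 per 1000, and chromosome 1 had 54, or 7.89 per 1000, compared with 5.52 over the genome. Chromosome 22 had 0 of 473, which allows up to 0.634%, above the 0.552% over the genome, and chromosome 19 had 1 of 931. Protein-coding starts that did not meet the rule had a mean of 11.6 read pairs on chromosome 7, 10.5 on chromosome 1, 5.88 on chromosome 19 and 5.07 on chromosome 22, and 10.3 over the genome. These means did not follow the number of members throughout: chromosome 16 had 7.21 members per 1000 features with a mean of 7.90, and chromosome 5 had 5.23 per 1000 with a mean of 11.9.

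A stretch of chromosome 7 from 86 to 98 Mb, chosen after its values were seen, held 29 of the 56, at 42.2 per 1000 features. It includes PEG10, SGCE and the promoters of VPS50, FZD1, ASNS, STEAP2, DLX5, DBF4 with SLC25A40 and CYP51A1, and 16 of the 29 have no start. The features of all kinds were denser there than on either side, at 57.3 per Mb compared with 37.4 in the 12 Mb before and 25.8 in the 12 Mb after. Features of the stretch that did not meet the rule had 7.11 read pairs on average, 1.24 times the 5.75 of all such features. They had 3.41 in plate 1 and 3.71 in plate 2, where the means over all were 2.88 and 2.87. In the flanking stretches the means were 5.91 and 5.99, and 3 and 1 features met the rule. A longer stretch of chromosome 1, also chosen after its values were seen and reaching at most 2 Mb beyond its first and last members at positions 157324418 and 186375867, held 25 of the 54 features of that chromosome, at 18.4 per 1000. It includes the promoters of ODR4 with TPR, SUCO, EDEM3 and METTL13, and 19 of the 25 hold a start. Its features that did not meet the rule had 6.92 read pairs on average, 1.20 times the mean of all such features. Copy number was not measured here.

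**Figure D5:**
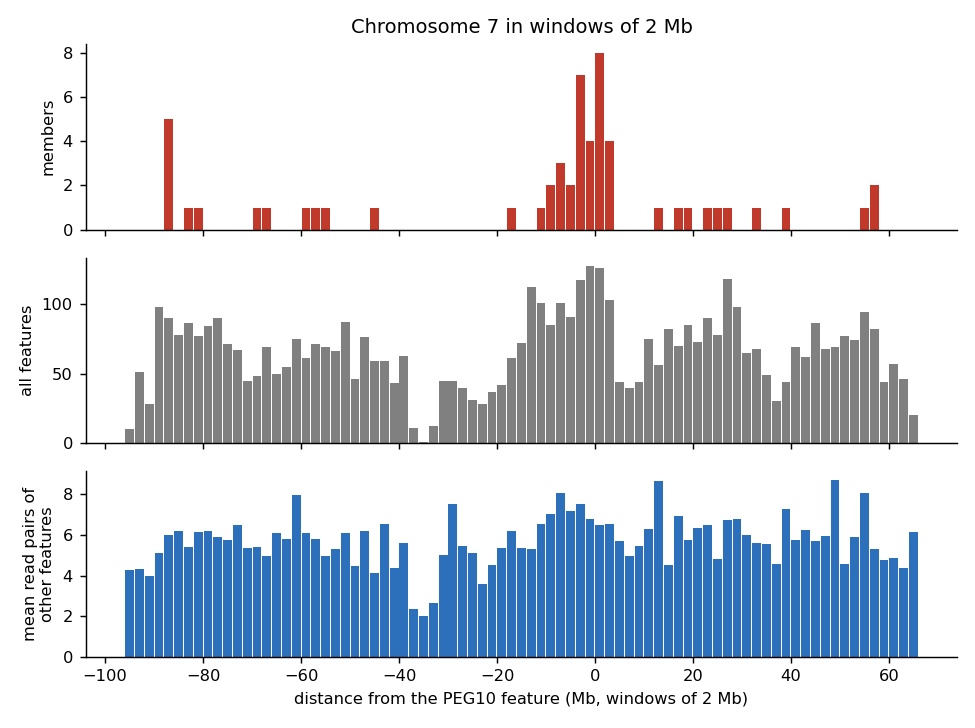
Bars give, in windows of 2 Mb along chromosome 7 placed by their distance in Mb from the PEG10 feature, the number of the 447 features (top), the number of all features (middle) and the mean read pairs of the features that did not meet the rule (bottom). The windows within 4 Mb of PEG10 hold between 4 and 8 of the features each, and most other windows hold 0 or 1.

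The surroundings of the 447 features were measured with another divisor than the stretches above. Features within 1 Mb that did not meet the rule were averaged. Their mean was divided by 5.97, the mean over all features including the 447. This ratio had a median of 1.02 (quartiles 0.921 and 1.12), compared with 0.965 (0.849 and 1.08) for all features. It is therefore not on the same scale as the ratios of the stretches. For the 29 features of the chromosome 7 stretch the median was 1.19, and for the 25 of the chromosome 1 stretch it was 1.0988. HAP1 carries a part of chromosome 15 a second time, and between 61 and 89 Mb of that chromosome 2 of 829 features met the rule, or 2.41 per 1000, with 5.81 read pairs on average in the others. In the rest of chromosome 15, 7 of 1200 features met the rule, or 5.83 per 1000, and the others had 5.17.

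At the edge of the rule, the 251 features with exactly 3 nuclei at 3 or more had a median of 33 read pairs in 23 nuclei, and 62.9% held a start. The 1002 features with exactly 2 such nuclei, which just missed it, had a median of 22 read pairs in 16 nuclei, and 51.2% held a start. All 447 features together held 19973 read pairs, 4.13% of the total, and this share was 4.12% in plate 1 and 4.14% in plate 2.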

How the data were processed

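Single nuclei of HAP1 were profiled by plate-based snATAC-seq. The authors trimmed reads with fastp, aligned those without a CASB barcode to hg38 with bowtie2, removed mitochondrial reads, reads of low mapping quality and duplicates, called peaks with MACS2 on all nuclei together, and set features of 500 bp on both sides of each summit. Per the file headers, the deposited table gives, for every nucleus, the count of read pairs overlapping a feature from featureCounts 1.6.0, not normalized, with a pair counted in every feature it touched. Titles gave the plate and a number within it, and 0 count columns were left without a sample.

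The members and lists were chosen with earlier results of these data known. Features with a count of 3 or more in at least 3 nuclei were taken as members. Starts, genes and exons came from GENCODE release 44. Repeated sequence is the percent of words of 31 bases that occur at least 2 times in the assembly on either strand, without alternate contigs. Mitochondrial copies and other copies were found with blastn 2.17.0. The reference held no masking, so masked shares were not computed. Repeats within a feature are the best match at shifts from 10 to 400 bp. Shares of nuclei have exact Clopper-Pearson 95% intervals, and a count of 0 allows 3 counts of the total.

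No test was run: each plate is 1 sample, nuclei and regions are not replicates, and counts chose the members. Shallow nuclei, with a median of 1647.5 read pairs, limit which features can reach 3. The named features were the 10 with most nuclei at 3, the 5 with the highest share at 3 among those seen in at least 10 nuclei, the mitochondrial copies, the 5 most repeated, the 5 leading protein-coding starts and the 3 with most read pairs among those lost with linked nuclei counted as 1. Of these, 1 feature is not reported here. The rule and the sets of linked nuclei were tested on simulated data. Python 3.11.15, NumPy 2.4.6 and SciPy 1.17.1 were used.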

Additional observations from a re-analysis of the deposited data

How the results depend on the processing

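The number of features depended on the rule itself. It was 4893 with 2 or more read pairs and 53 with 4 or more, and 1449 with at least 2 nuclei and 100 with at least 5. It was 129 in plate 1 only, 134 in plate 2 only, 236 without the 10 deepest nuclei and 13 with nuclei thinned to 2000 read pairs, where fewer nuclei or read pairs entered. Restricting to the 162 nuclei with more than 300 peaks gave 446. Members held 4.36% of the read pairs with linked nuclei counted as 1, just above the interval of 4.08% to 4.19% around 4.13%. That interval takes read pairs as independent and covers counting error only. Mostly repeated features were 2 with the limit at 90% of the words and 2 with words counted on chromosomes 1 to 22, X and Y only, which leaves out the mitochondrial genome and contigs. Features close to a gap were 7 at 100 kb. The other 17 of 29 alternatives, among them all 6 for the share with a start (59.7% to 66.2%), stayed within 1.5 times the count or within the interval of the share. For the share with a start that interval was 58.7% to 67.8%. It takes features as independent, although regions are not replicates, so it only marks how far a setting moved the share. One alternative, words with alternate contigs (9 features), was chosen after seeing the data. No paired analysis was possible because no test was run and the replicate numbers only name nuclei within a plate.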

Other observations

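A few further features without a start are given by their values. An intron feature of HHAT, which attaches palmitate to Hedgehog ligands, at chr1:210482729-210483729 had 70 read pairs in 40 nuclei with 9 at 3, and a feature in an intron of CALCR, the calcitonin receptor, at chr7:93476358-93477358 had 47 in 31 nuclei with 3 at 3. A feature in an intron of the long noncoding RNA ENSG00000286085 at chrX:145715462-145716462 had 81 read pairs in 48 nuclei, and 9 nuclei reached 3. A site between genes at chr16:63037609-63038609, 21799 bp from the nearest start, had 74 read pairs in 46 nuclei and 7 at 3. These were named after their values were seen, and none of them holds a start.

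Overlapping features over the promoter of ANXA2, annexin A2, at chr15:60398132-60399132 and chr15:60398539-60399539 each had 19 read pairs in 11 nuclei with 3 at 3. They are 1 place counted as a pair of features.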
